A study of Mus musculus with 10 samples.

Results

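The PDGF, FGF and Kit receptor tyrosine kinases, with a few of their ligands, were followed through the chemical conversion of mouse fibroblasts to cells resembling extraembryonic endoderm (XEN). The set was chosen by gene name and holds 10 of the 23197 genes in the count table: the PDGF receptors Pdgfra and Pdgfrb, the PDGF ligands Pdgfa and Pdgfc, the FGF receptors Fgfr1, Fgfr2, Fgfr3 and Fgfr4, the stem cell factor receptor Kit and its ligand Kitl. All 10 had a row in the table, and their levels were described in the 670 of 808 hand-picked cells in which at least 4000 genes were detected. Mouse embryonic fibroblasts (MEFs) of mid-gestation ICR embryos, freed of head, limbs and viscera, were treated with C6FAE, that is CHIR99021 (a GSK3 inhibitor), RepSox (an ALK5 inhibitor), Forskolin (a cAMP agonist), AM580 (a retinoic acid receptor agonist) and EPZ004777 (a Dot1l inhibitor), in a medium that held serum, serum replacement and basic FGF, an FGF receptor ligand that every group after d0 therefore received. The medium was renewed at intervals of 4 days, over 12 days in the labels and over 12 to 20 days in the methods. The methods list valproic acid in the induction cocktail as well, whereas the sample labels name C6FAE. The cell names give 12 groups: d0 (untreated MEFs), d1, d2, d3, d4, d5, d6p, d8, d12 and d20, and d8c and d12c, which were picked from colonies. The 10 deposited samples are batches that the cell names do not show, so each group is a set of cells without replicate samples: cells were not treated as replicates, no test was run, and intervals cover counting error only.

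Receptor tyrosine kinases are membrane proteins that pair up when a ligand binds and then phosphorylate each other and a set of adaptor proteins, which pass the signal to the Ras-ERK and PI3 kinase pathways. Pdgfra binds PDGF-AA and PDGF-CC among other dimers and marks mesenchymal cells, and it is also an early marker of the primitive endoderm of the blastocyst, the layer from which XEN cells are derived. Pdgfrb is the receptor of PDGF-BB and is known from pericytes and fibroblasts. FGF receptors bind FGFs together with heparan sulfate, and FGF signaling drives the formation of primitive endoderm. Kit is best known from blood stem cells, mast cells, melanocytes and germ cells, where its ligand Kitl supports survival.

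Pdgfra and Kit are neighbours on chromosome 5, and their levels moved differently along the course, so the sequences before their start sites are shown. In the gene models of build NCBIM37 (mm9, the build to which the authors aligned), Pdgfra lies at chr5:75548316-75594229 and Kit at chr5:75970941-76052747, both on the plus strand, with 377 kb and 0 other protein-coding genes between them. The stretches below are intergenic and upstream of these models, were read from RefSeq promoter windows of build GRCm38.p6 and were placed by exact match on NCBIM37 at chr5:75548026-75548275 (250 bases, Pdgfra) and chr5:75970762-75970940 (179 bases, Kit). Capitals mark TGACG or its complement, the half-site of the cAMP response element, in Pdgfra, and GGGCGG, the GC box, in Kit.
Pdgfra: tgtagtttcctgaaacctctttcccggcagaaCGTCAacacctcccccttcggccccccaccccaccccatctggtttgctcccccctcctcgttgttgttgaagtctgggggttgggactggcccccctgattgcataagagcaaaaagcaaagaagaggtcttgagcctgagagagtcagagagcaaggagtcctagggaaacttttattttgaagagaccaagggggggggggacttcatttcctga
Kit: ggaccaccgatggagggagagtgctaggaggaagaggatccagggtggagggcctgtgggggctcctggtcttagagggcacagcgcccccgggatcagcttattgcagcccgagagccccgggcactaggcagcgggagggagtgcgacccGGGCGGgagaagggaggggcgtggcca

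Of the 10 genes, 8 had such a window, all but Pdgfrb and Fgfr1. Motifs were searched in the 250 bases before the start on both strands, and their background is the share of 32851 mouse windows of the same length: GGGCGG (32.7% of windows), TGACG (17.8%), TATAAA (12.4%), AGATAA or TGATAA, the GATA site (16.6%), and ACAAT, the core of SOX sites (27.7%). TGACG was matched once in Pdgfra and in 0 of the other windows of the set. GGGCGG was matched 3 times in Fgfr3 and in Kitl, 2 times in Fgfr4 and once each in Kit and Pdgfa. The GATA site was matched in 0 of the 8 windows, ACAAT in Pdgfa only and TATAAA in Kitl only. Windows also differed in CpG content: Kitl held 23 CpGs, Pdgfa and Fgfr3 19, Kit 17 and Fgfr4 15, whereas Pdgfra held 4, Pdgfc 3 and Fgfr2 2, beside a median of 6 over all windows. A match describes the letters in these windows and was not set against any factor's binding.

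Of the facts that concern all genes, depth and cell identity touch the values below. Median UMIs per cell ran from 195480 at d20 to 1055210 at d2, so shares of cells with a UMI are also given after each cell was thinned to 50000 UMIs, which left out 23 shallower cells. The summed level of 10 fibroblast markers had medians of 2045 to 16587 CPM (UMI counts per 1000000 UMIs of the cell, spike-ins left out) from d0 to d12, 78.1 at d12c and 46.0 at d20, and the sum of 12 XEN markers had medians of at most 66.4 CPM up to d12, 775 at d12c and 1491 at d20. Epithelial markers, which XEN cells share in part, had a median sum of 11.4 CPM at d0, 123 at d12, 2155 at d12c and 2215 at d20. Mast cell markers summed to a median of 0 in all 12 groups, as did Schwann cell markers, and the endothelial sum reached its highest median of 3.80 CPM at d12. Kdr, described below, is among the 6 endothelial markers and made up most of that sum at d12 (means of 36.2 and 36.8 CPM). At d0, transcripts of the myoblast list and of the pericyte and smooth muscle list were present as well, with Myog at a mean of 67.2 CPM. Cspg4 (57.2 CPM) and Des (47.0) made up most of the pericyte and smooth muscle sum, whose mean was 127 CPM over 8 markers. The other markers of that list were low, so the sum does not show that pericytes were present. Single cells weighed on these means: the pericyte and smooth muscle sum had a median of 59.3 CPM and a highest cell of 2679. The myoblast sum had a mean of 169 CPM, a median of 28.7 and a highest cell of 6837. It was higher at d2 (mean 274, median 137) and d4 (245 and 104). The part of these transcripts in the PDGF receptor values was not tested. UMIs per spike-in UMI had a median of 29.5 at d0, 8.06 at d12 and 4.19 at d20, and all levels are relative to the total of a cell. Whether that total was itself lower late in the course was not tested, since equal spike-in amounts are not stated. The ratio also differed between cells numbered up to 48 and above, at d0 (38.6 and 22.1) and at d4 (37.8 and 19.2).

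Pdgfra was the receptor found in nearly all cells after induction. Its mean was 28.2 CPM at d0, 119 at d1, 113 at d2, 166 at d3, 134 at d4, 247 at d5, 352 at d6p, 211 at d8, 427 at d12 and 201 at d20, with 121 in colony cells at d8c and 263 at d12c. The d0 group lay lowest and d12 highest, and the interquartile range of the d12 cells (225 to 571 CPM) did not overlap that of d0 (3.40 to 45.1 CPM). In the order of means, 10 of 11 pairs of neighbouring groups overlapped in this range, all but d2 and d0. Single cells spanned 0 to 186 CPM at d0 (median 10.5), 8.60 to 1260 CPM at d12 (median 355) and 0 to 915 CPM at d20 (median 192). The highest cell of all stood at d6p with 3961 CPM, and without it that mean was 310.0 CPM. At equal depth, 53.5% of d0 cells (95% exact binomial interval 41.3 to 65.5%) held a Pdgfra UMI, 90% at d1 (76.3 to 97.2%), 98.5% at d12 (65 of 66 cells) and 94.4% at d20.

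Pdgfrb took another course. Its mean was 42.4 CPM at d0, 4.83 at d1, 12.6 at d2, 8.17 at d3, 15.0 at d4, 35.2 at d5, 20.1 at d6p, 32.2 at d8, 8.63 at d8c, 35.3 at d12, 6.64 at d12c and 1.16 at d20. The level was thus low on the first day, between 20.1 and 35.3 CPM from d5 to d12 outside colonies, and close to absent at the end. At d20 all 18 Pdgfrb UMIs came from 1 of 38 cells, a cell whose fibroblast marker sum exceeded its XEN marker sum. At equal depth, 43.7% of d0 cells held a UMI, 15% at d1 (5.71 to 29.8%), 48.5% at d12 (32 of 66 cells), 10.6% at d12c and 2.78% at d20. Cells spread widely at each stage, from 0 to 280 CPM at d0 (median 18.5) and from 0 to 279 CPM at d12 (median 6.04).

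Both PDGF ligands were detected from the start. Pdgfa, which forms the PDGF-AA ligand of Pdgfra, had means of 53.6 CPM at d0, 27.7 at d1, 36.6 at d2, 52.6 at d3, 35.4 at d4, 6.95 at d5, 17.1 at d6p, 10.4 at d8, 32.8 at d8c, 23.9 at d12, 71.0 at d12c and 56.8 at d20. Its lowest means were those of d5 to d8, and 1 cell with 558 CPM made up much of the d6p mean, which was 10.7 CPM without it. Pdgfc, the other ligand of Pdgfra, had means between 11.8 and 30.9 CPM from d0 to d12, 5.58 at d12c and 1.87 at d20. At equal depth, Pdgfa was found in 47.9% of cells at d0, 13.6% at d6p, 27.3% at d12, 51.1% at d12c and 52.8% at d20. Pdgfc went the opposite way late in the course, from 39.4% at d12 to 17.0% at d12c and 5.56% at d20.

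Pdgfa and Pdgfra UMIs occurred in the same cells about as often as the share of cells with Pdgfra gives. All 19 Pdgfa cells of d20 also held Pdgfra, as did 37 of all 38 cells, and at d0 this was so for 46 of 48 Pdgfa cells and 65 of all 72 cells. At equal depth, 18 of 34 Pdgfa cells of d0 held Pdgfra, beside 38 of all 71 cells. Within groups the levels of Pdgfra and Pdgfa had weak correlations across cells (Spearman's rho between -0.25 and 0.10 in the 12 groups, each over 20 to 86 cells whose samples are not known).

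Among the FGF receptors, Fgfr1 was found in most cells up to d12. Its mean was 46.8 CPM at d0, 46.3 at d1, 60.2 at d2, 78.9 at d3, 47.2 at d4, 106 at d5, 94.6 at d6p, 61.6 at d8, 35.9 at d8c, 113 at d12, 25.3 at d12c and 12.9 at d20. Every d12 cell held a Fgfr1 UMI (3.40 to 548 CPM, median 81.4), against 10 of 38 cells at d20 (0 to 209 CPM, median 0). The interquartile range of d12 (32.4 to 158 CPM) lay above those of d12c (0 to 19.2 CPM) and d20 (0 to 1.39 CPM). At equal depth, 86.4% of d12 cells, 31.9% of d12c cells and 25% of d20 cells held a UMI.

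Fgfr2 was higher in the middle of the course. Its mean was 15.2 CPM at d0, 7.89 at d1, 13.8 at d2, 53.9 at d3, 42.6 at d4, 56.5 at d5, 43.3 at d6p, 43.7 at d8, 29.1 at d8c, 26.5 at d12, 19.0 at d12c and 1.42 at d20. The step lay between d2 and d3, where the share of cells with a UMI at equal depth went from 25.6% (16.6 to 36.4%) to 75.7% (58.8 to 88.2%). At d20 there were 8 Fgfr2 UMIs in 5 of 38 cells. In the annotation of NCBIM37 the longest model named Fgfr2 (chr7:137305965-140315033) overlaps 41 other genes. Reads were aligned to a transcriptome, and whether any of those genes shared reads with Fgfr2 was not tested.

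Fgfr3 and Fgfr4 were rare. Fgfr3 stayed at or under 0.934 CPM in every group, with 0 UMIs in the 72 cells of d0 and the 38 cells of d20, for which 3 counts allow up to 4.17% and 7.89% of cells with a UMI (exact binomial limits 4.99% and 9.25%); these limit detection, not expression. Fgfr4 was at or under 0.766 CPM in every group up to d12, 5.67 CPM at d12c and 7.59 at d20. It was found in 14 of 51 d12c cells and in 17 of 38 d20 cells, at up to 54.9 and 41.3 CPM. At equal depth the Fgfr4 shares were 1.52% at d12 (0.0384 to 8.16%), 14.9% at d12c (6.20 to 28.3%) and 27.8% at d20 (14.2 to 45.2%).

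Kit was close to absent in MEFs. At d0 it had 3 UMIs in 3 of 72 cells, a mean of 0.0410 CPM. Its mean was 1.60 CPM at d1, 3.09 at d2, 2.39 at d3, 2.89 at d4, 6.30 at d5, 3.87 at d6p, 3.93 at d8, 2.87 at d8c, 8.82 at d12, 12.6 at d12c and 53.1 at d20. The d20 cells stood highest, with a UMI in 28 of 38 cells, a median of 26.3 CPM and a highest cell of 267 CPM. The median was 0 in each of the other 11 groups. The interquartile range of d20 (0.438 to 109 CPM) lay above those of d0, d1, d3 and d4 and overlapped those of the other groups. At equal depth, 1.41% of d0 cells, 6.17 to 16.7% of cells from d1 to d12, 25.5% of d12c cells (13.9 to 40.3%) and 69.4% of d20 cells (51.9 to 83.7%) held a Kit UMI. Of other cell types that carry Kit, mast cells were checked by 5 markers, whose sum was 0 in every d20 cell, and melanocytes by 5 markers, whose sum at d20 had a median of 0 and a highest cell of 119 CPM.

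Kitl, the ligand of Kit, was present throughout. Its mean was 31.4 CPM at d0, 37.8 at d1, 19.3 at d2, 31.7 at d3, 46.0 at d4, 19.5 at d5, 48.8 at d6p, 41.1 at d8, 26.5 at d8c, 75.4 at d12, 59.8 at d12c and 52.9 at d20. The spread over cells was wide at every stage (0 to 917 CPM at d12, median 27.2; 0 to 418 CPM at d20, median 13.3), and the interquartile ranges overlapped between all 66 pairs of groups. Receptor and ligand of this pair were found together in 3 of 72 cells at d0, 26 of 67 at d12 and 18 of 38 at d20. Kit was found in 3, 26 and 28 cells of these groups and Kitl in 37, 64 and 24. At equal depth, 1 of 71, 8 of 66 and 12 of 36 cells held both. Over the d20 cells the levels of Kit and Kitl had a Spearman's rho of -0.01.

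**Figure D1:**
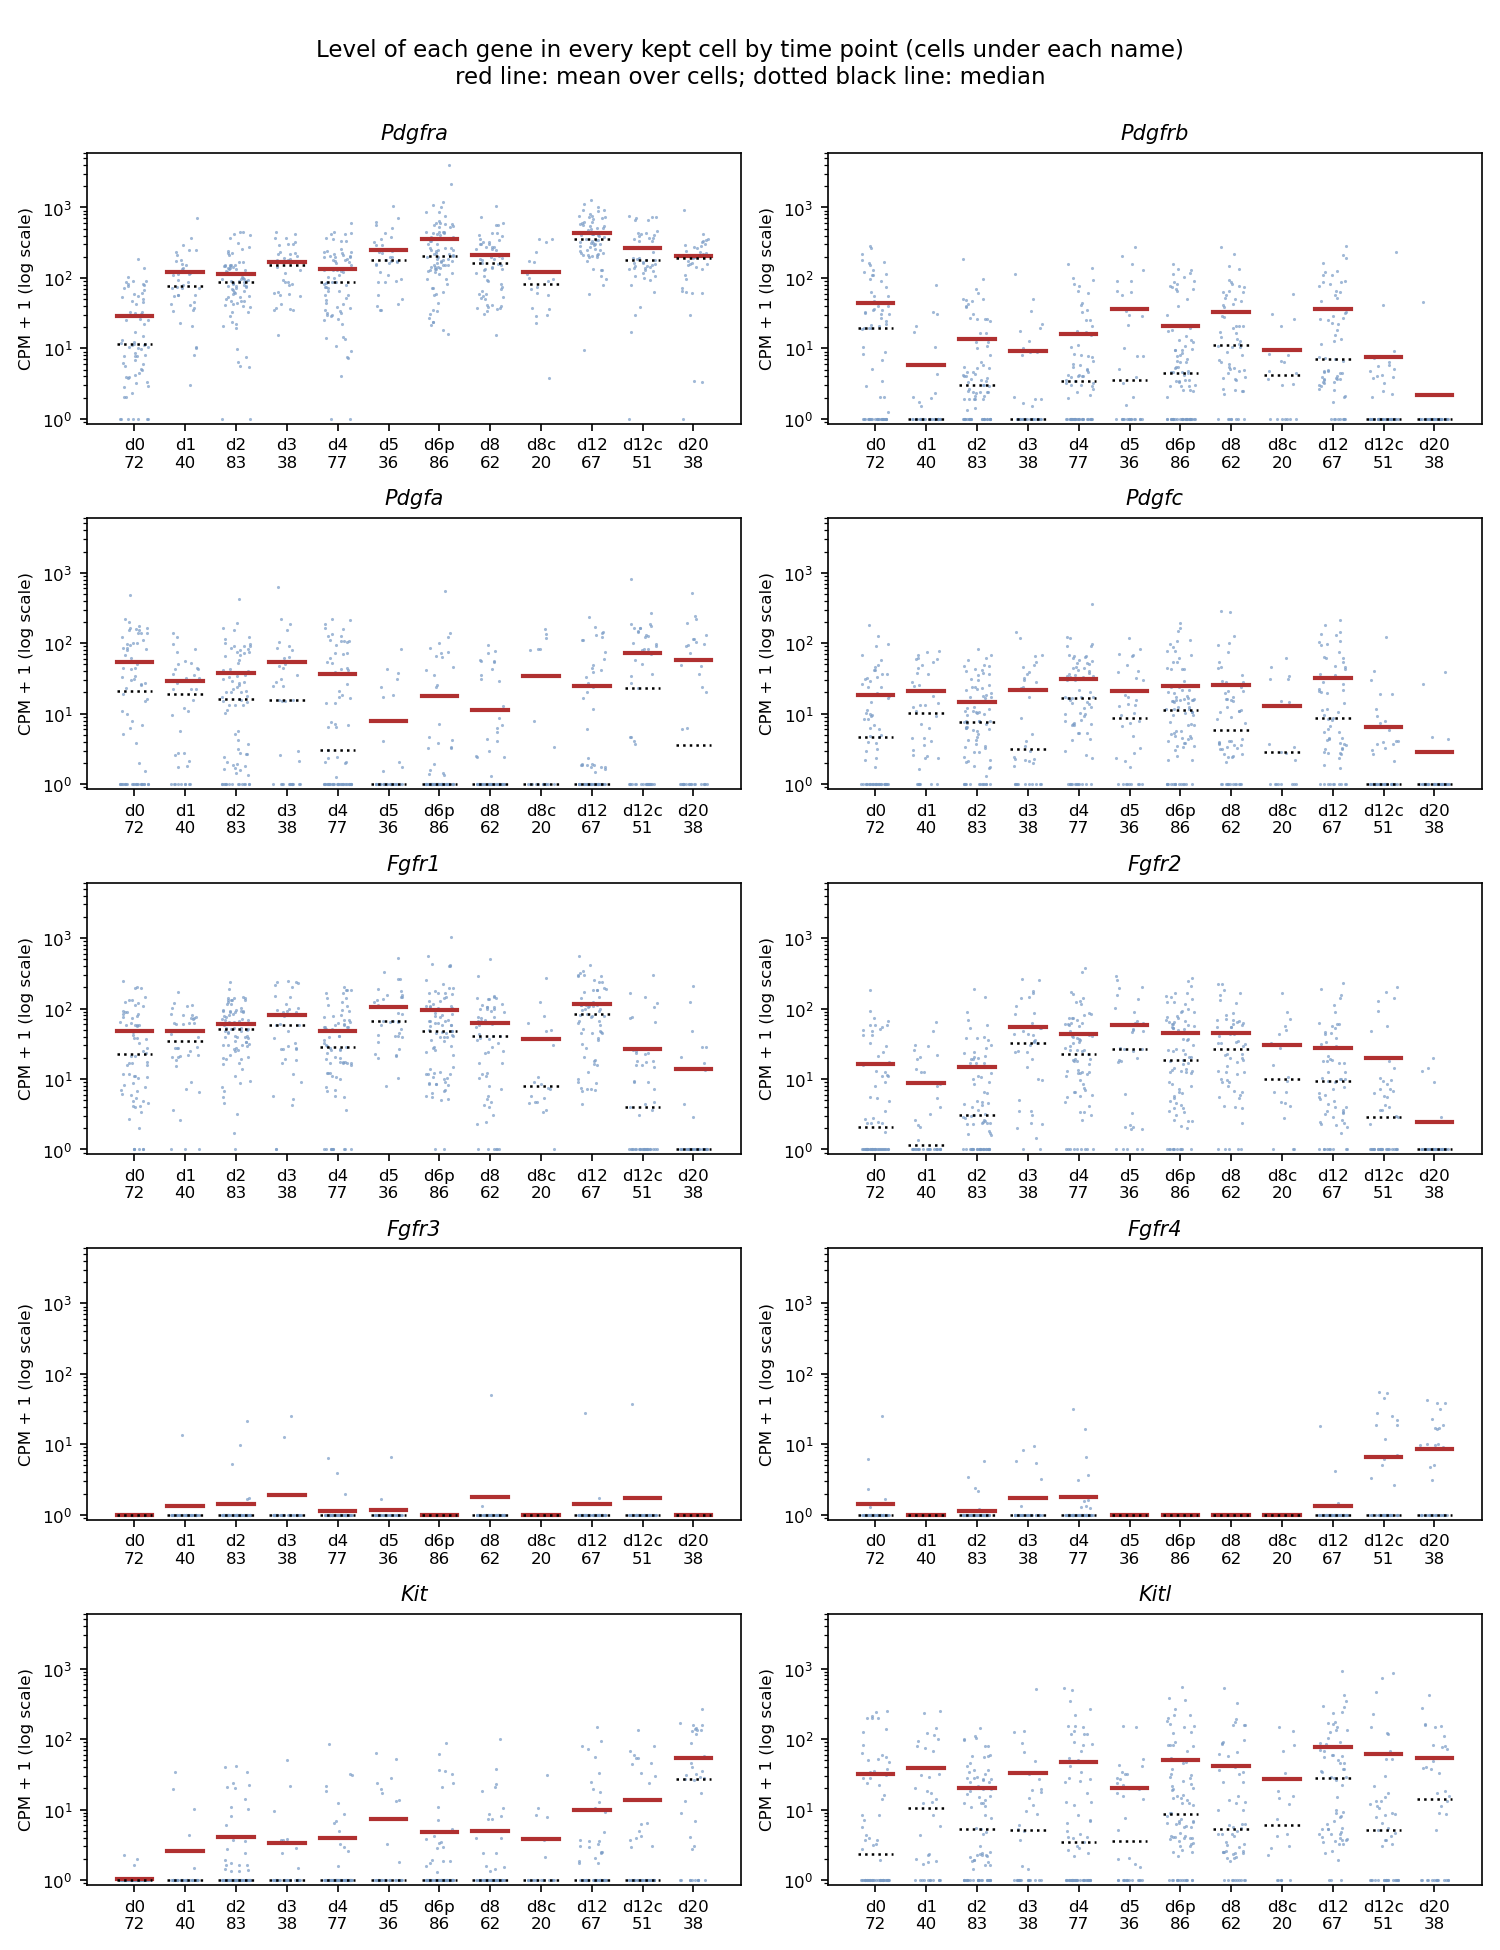
CPM plus 1 (log axis) of each of the 10 genes in every kept cell, with cells as points, the mean as a red line and the median as a dotted black line for each of the 12 groups (numbers of cells under the names). Pdgfra points lie above the bottom line in nearly all cells after d0, and Pdgfrb, Pdgfc and Fgfr2 thin out at d20. Kit points lie off the bottom line in part of the cells of every group. Only at d20 is this so for most cells, with a median of 26.3 CPM.

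**Figure D2:**
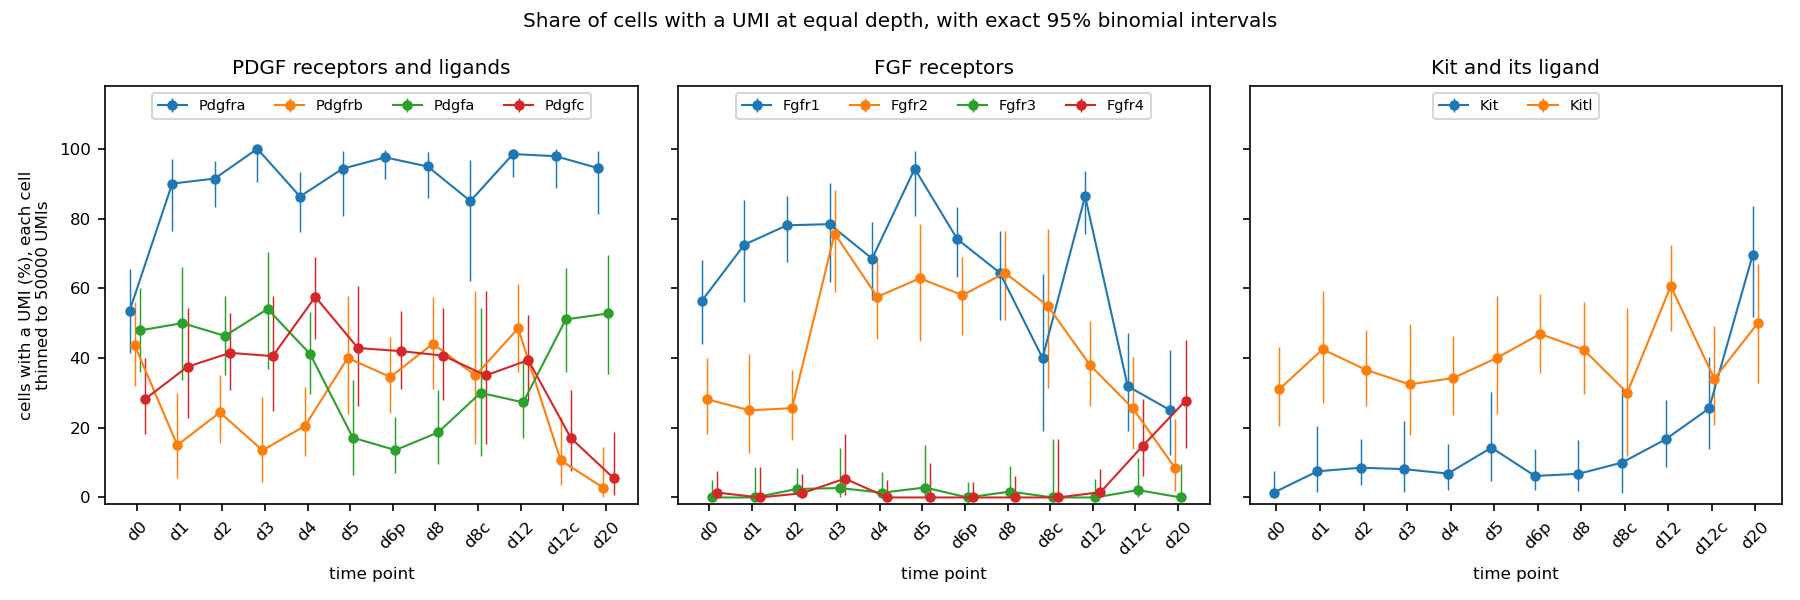
Share of cells (%) with a UMI of each gene after thinning every cell to 50000 UMIs, by group, with exact 95% binomial intervals as bars. The Kit share stood at 69.4% at d20 and at most 25.5% before, the Fgfr2 share stepped from 25.6% at d2 to 75.7% at d3, and the Fgfr1 share was 86.4% at d12 and 25% at d20.

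The comparisons of time points ask which of these receptors and ligands differed between stages. A gene counted as past 2-fold where its means, after adding 1 CPM, differed by more than 1 on the log2 scale and it reached 5 CPM in either group; such counts are read beside the share of all genes that met the same rule. The comparisons of d1, d8, d12 and d20 with d0 share the d0 cells, and both comparisons of d20 share the d20 cells.

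On the first day, Pdgfra was higher and Pdgfrb lower. From d0 to d1 Pdgfra went from 28.2 to 119 CPM, a log2 difference of 2.03, and the summed UMIs gave a ratio of 4.28 (95% counting interval 4.01 to 4.57). Pdgfrb went from 42.4 to 4.83 CPM, a log2 difference of -2.90. These were the 2 of 7 measured genes of the set past 2-fold, where 9.75% of all 9514 measured genes were higher and 11.7% lower. The mean of Fgfr1 differed little between these groups (46.8 and 46.3 CPM, log2 difference -0.02), as did those of Pdgfc (0.21) and Kitl (0.26). Their medians over cells were higher at d1: 33.1 against 21.5 CPM for Fgfr1, 9.14 against 3.74 for Pdgfc and 9.46 against 1.33 for Kitl. With medians, 31.7% of all measured genes were past 2-fold higher and 6.42% lower. The d1 cells had larger libraries than the d0 cells (medians of 749158 and 344196 UMIs). The pericyte and smooth muscle marker sum, like Pdgfrb, was lower at d1 (mean 17.5 CPM, median 9.46) than at d0 (mean 127, median 59.3, highest cell 2679). Cspg4 and Des made up most of that d0 mean.

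By d8, 3 of 7 measured genes of the set were past 2-fold of d0. Pdgfra was higher (211 against 28.2 CPM, log2 difference 2.86) and so was Fgfr2 (43.7 against 15.2 CPM, 1.47), while Pdgfa was lower (10.4 against 53.6 CPM, -2.26). Over all genes 18.6% were higher and 14.9% lower. Per spike-in UMI, Fgfr2 (0.56) was no longer past 2-fold, on a scale where the median of all genes was -0.91. Pdgfrb, at 32.2 CPM, differed from d0 by a log2 value of -0.39 in these cells. Colony cells at d8c, measured in 20 cells only, had Pdgfra at 121 CPM, Pdgfa at 32.8 and Pdgfrb at 8.63, beside 211, 10.4 and 32.2 CPM at d8.

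At d12, 5 of 8 measured genes of the set were past 2-fold of d0. Pdgfra (427 against 28.2 CPM, log2 difference 3.87), Kit (8.82 against 0.0410 CPM, 3.24), Fgfr1 (113 against 46.8 CPM, 1.26) and Kitl (75.4 against 31.4 CPM, 1.24) were higher. Pdgfa (23.9 against 53.6 CPM, -1.13) was lower. Over all genes 19.3% were higher and 19.3% lower. Pdgfa was no longer past 2-fold under 7 alternatives, with log2 differences between -0.97 and -0.72, among them both other scalings, thinned cells and all cells. Kit stood at 4.03 CPM in d12 cells numbered up to 48, under the minimum of 5 CPM, and at 18.6 CPM in those above, and its difference was 1.16 with back-transformed log means, 0.91 with a pseudocount of 10 and 0 for medians. Fgfr1 (0.80) and Kitl (0.78) missed 2-fold in cells numbered above 48, and Kitl (0.99) with summed UMIs. With the 3 Kit UMIs of d0, the Kit ratio of 78.9 had a counting interval of 26.8 to 385. The Fgfr1 and Kitl differences turned negative (-0.84 and -0.80) when levels were scaled per spike-in UMI, a scale on which the median of all genes lay at -2.03, with 4.63% higher and 82.4% lower. On that scale Pdgfra kept a log2 difference of 2.10.

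The d20 cells differed from d0 in 7 of 9 measured genes of the set. Kit (53.1 against 0.0410 CPM, log2 difference 5.70), Pdgfra (201 against 28.2 CPM, 2.79) and Fgfr4 (7.59 against 0.439 CPM, 2.58) were higher. Pdgfrb (1.16 against 42.4 CPM, -4.33), Fgfr2 (1.42 against 15.2 CPM, -2.74), Pdgfc (1.87 against 17.2 CPM, -2.67) and Fgfr1 (12.9 against 46.8 CPM, -1.79) were lower. Over all genes 23.2% were higher and 19.1% lower. The Kit ratio from summed UMIs was 572 (counting interval 194 to 2788), and that of Fgfr4 was 38.2 (18.3 to 92.2). The Fgfr4 call was lost with all cells (1.73) and with back-transformed log means (1.57), where its level was under 5 CPM, with a pseudocount of 10 (0.75) and with medians over cells, which were 0. Without its highest cell, the d20 mean of Fgfr1 was 7.55 CPM. With back-transformed log means and with medians, Fgfr2 and Pdgfc were under 5 CPM in both groups. Under TMM scaling the shares became 17.8% higher and 23.3% lower. Per spike-in UMI, where the median of all genes was -2.48 and 1.91% of genes were higher and 92.0% lower, the log2 difference of Kit was 3.47 and that of Pdgfra 0.22.

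Against d12, the d20 cells were past 2-fold in 8 of 9 measured genes of the set, all but Kitl (52.9 against 75.4 CPM, log2 difference -0.50). Fgfr4 (7.59 against 0.315 CPM, 2.71), Kit (53.1 against 8.82 CPM, 2.46) and Pdgfa (56.8 against 23.9 CPM, 1.21) were higher. Pdgfrb (-4.07), Fgfr2 (-3.51), Pdgfc (-3.48), Fgfr1 (-3.04) and Pdgfra (201 against 427 CPM, -1.08) were lower. Over all genes 30.8% were higher and 22.9% lower, and the median difference was -1.08 over the 9 genes and 0.32 over all 10441. Under TMM scaling the all-gene shares became 20.5% higher and 30.2% lower, with a median of -0.16, and Pdgfa (0.79) was no longer past 2-fold. Pdgfa also missed 2-fold with median-of-ratios factors (0.90), with a pseudocount of 10 (0.98) and per spike-in UMI (0.34, beside an all-gene median of -0.57). Its medians over cells, 2.55 CPM at d20 and 0 at d12, were under 5 CPM. Fgfr4 was lost here under the same alternatives as against d0 (2.11 with all cells, 1.60 with back-transformed log means, 0.77 with a pseudocount of 10, 0 with medians). The Pdgfra difference lay at -0.99 when cells with few genes were kept, at -0.95 in thinned cells and at -0.88 with medians. It was -0.53 in cells with running numbers above 48.

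**Figure D3:**
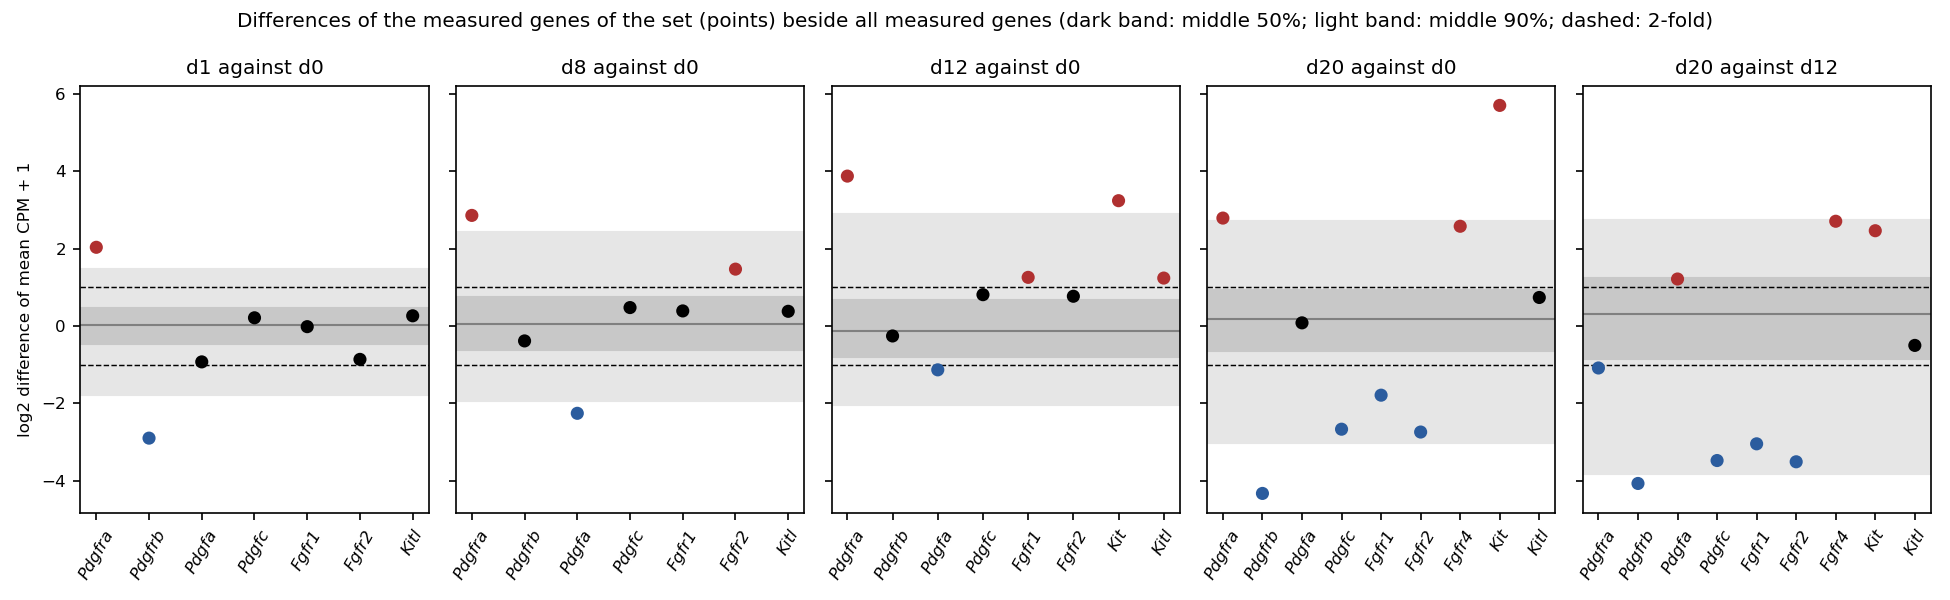
Log2 difference of mean CPM plus 1 for the measured genes of the set (red past 2-fold higher, blue past 2-fold lower, black neither) in each of 5 comparisons, beside the middle 50% (dark band), the middle 90% (light band) and the median (grey line) of all measured genes. Pdgfra lies above the light band in the 4 comparisons with d0, Kit above it at d12 and d20 against d0, and Pdgfrb below it in both comparisons of d20 and at d1.

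The d12, d12c and d20 groups hold both kinds of end state, and the receptors were therefore described by the markers of each cell. The XEN marker sum exceeded the fibroblast marker sum in 3 of 67 d12 cells, 30 of 51 d12c cells and 36 of 38 d20 cells, with 4 of these 156 cells close to equal shares. Within d12c, the only group with many cells of both kinds, the 21 cells with the larger fibroblast sum had means of 382 CPM for Pdgfra, 54.6 for Fgfr1, 15.5 for Pdgfrb, 10.6 for Pdgfc and 29.6 for Fgfr2. The 30 cells with the larger XEN sum had means of 180 CPM for Pdgfra, 4.76 for Fgfr1, 0.436 for Pdgfrb, 2.06 for Pdgfc and 11.6 for Fgfr2. Of the latter, 2 cells numbered up to 24 held most of the Fgfr2 (mean 130 CPM), and the other 28 had a mean of 3.11 CPM. Without the highest cell of each gene, the means were 4.50 and 0.262 CPM for Pdgfrb, 5.04 and 0.783 for Pdgfc and 42.5 and 2.47 for Fgfr1 in the fibroblast and XEN classes. Pdgfra was found in 29 of these 30 cells, whereas Pdgfrb and Pdgfc were each found in 3. Running numbers ran with this split: 19 of the 21 cells were numbered up to 24, and 28 of the 30 were numbered above 48. Marker class and number range therefore cannot be told apart within d12c.

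Fgfr4 was found in 14 of the 30 d12c cells with the larger XEN sum and in 0 of the 21 with the larger fibroblast sum (3 counts allow up to 14.3% of cells with a UMI, and the exact binomial limit is 16.1%). Pdgfa was found in 21 of 30 and 9 of 21 of them, at means of 97.9 and 32.4 CPM. Kit was found in 12 of 30 and 7 of 21 (40%, 22.7 to 59.4%; and 33.3%, 14.6 to 57.0%), at means of 15.4 and 8.67 CPM (11.3 and 5.77 CPM without the highest cell). In the d12 cells with the larger fibroblast sum, 23 of 64 held Kit, and in the d20 cells with the larger XEN sum, 28 of 36 did, at a mean of 56.0 CPM. In cells with the larger XEN sum, the Kit mean was thus 56.0 CPM at d20 and 15.4 CPM at d12c, and the Fgfr4 mean 8.01 and 9.64 CPM.

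Over all late cells, Spearman's rho with the XEN share of the 2 marker sums was -0.73 for Fgfr1, -0.68 for Pdgfrb, -0.68 for Pdgfc, -0.49 for Fgfr2, -0.46 for Pdgfra, 0.46 for Fgfr4, 0.34 for Kit and 0.24 for Pdgfa. The samples of these cells are not known, and the depth of a cell ran with the same genes, with a rho between UMIs per cell and level of 0.58 for Fgfr1, 0.53 for Pdgfrb, 0.26 for Pdgfra, -0.18 for Fgfr4 and -0.14 for Kit. Leaving out the d12 cells with the larger XEN sum and the d20 cells with the larger fibroblast sum, an alternative chosen after seeing the data, left all 20 calls of the d12 and d20 comparisons past 2-fold in the same direction.

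**Figure D4:**
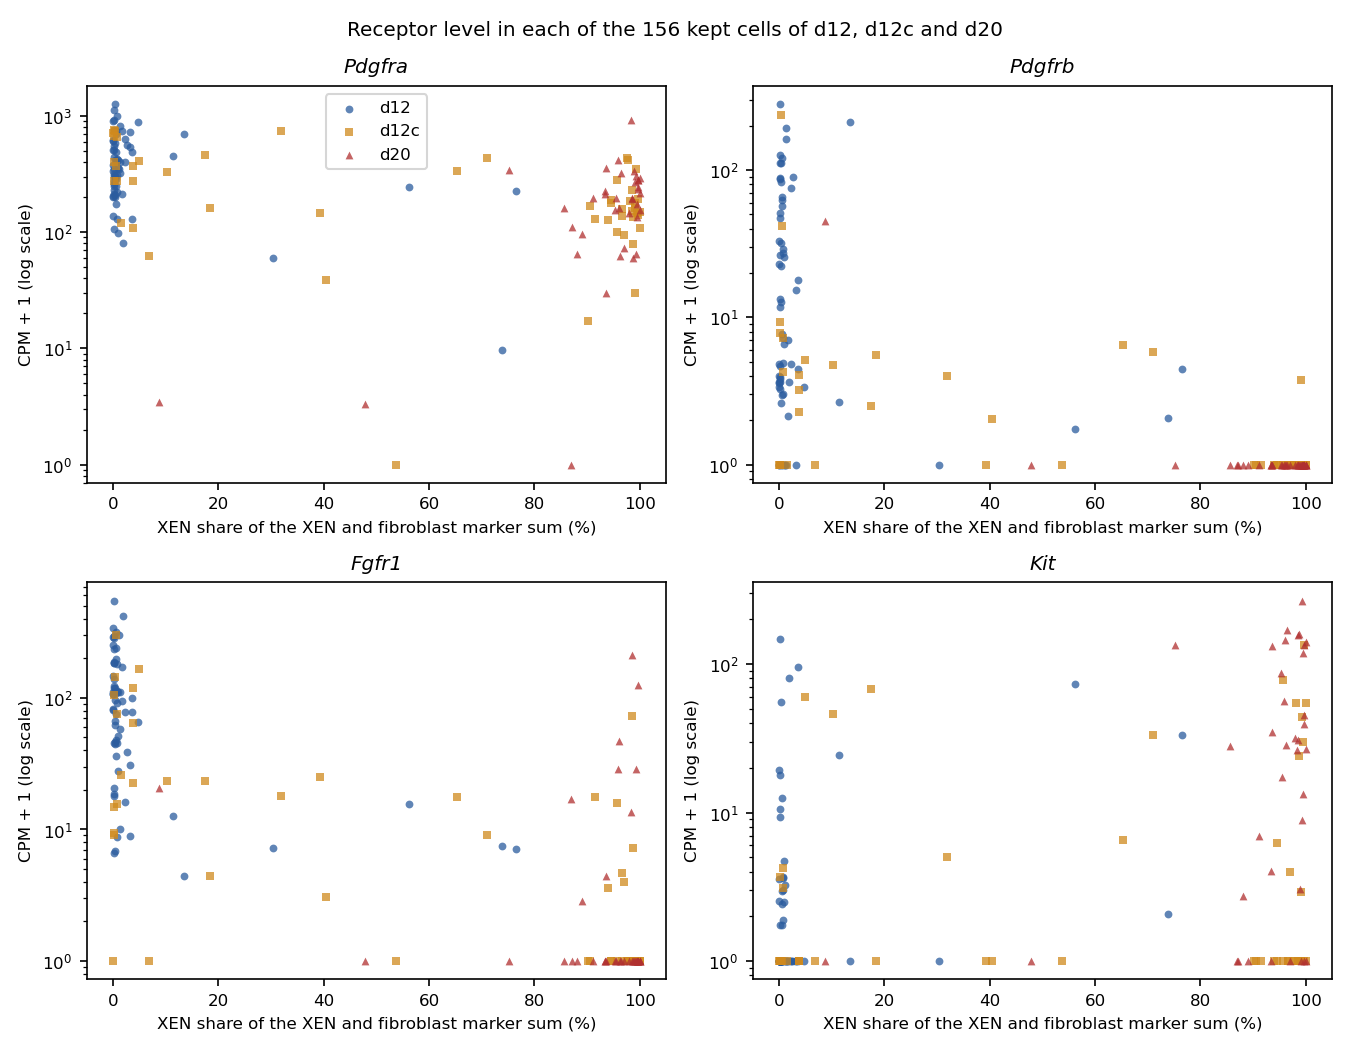
CPM plus 1 (log axis) of Pdgfra, Pdgfrb, Fgfr1 and Kit in each of the 156 kept cells of d12 (blue circles), d12c (orange squares) and d20 (red triangles) against the XEN share (%) of the summed XEN and fibroblast markers. Pdgfra stays high on both sides, Pdgfrb sits on the bottom line in nearly all cells on the right, Fgfr1 in most of them, and Kit is found on both sides with more of the d20 cells off the bottom line.

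The running numbers in the cell names divided some groups. In d12c, numbers 1 to 24 (21 kept cells) and 49 to 96 (30 kept cells) differed in marker sums, with fibroblast medians of 6518 and 25.2 CPM and XEN medians of 196 and 1104 CPM. These ranges hold nearly the same cells as the marker classes of d12c above, so their values are not a second observation. Pdgfra had means of 409 and 161 CPM in these ranges, Pdgfrb 16.0 and 0.0922, Fgfr1 54.7 and 4.74, Pdgfa 26.4 and 102, Fgfr4 0.0765 and 9.58, and Kit 10.5 and 14.1. The later-numbered d12c cells stood close to d20 in Pdgfra (ratio of d20 to d12c from summed UMIs 1.13, counting interval 1.05 to 1.21), below it in Kit (2.64, 2.16 to 3.25) and above it in Pdgfa (0.407, 0.362 to 0.457). Between these groups the mean of Fgfr1 was past 2-fold higher at d20 (12.9 against 4.74 CPM) and that of Fgfr2 past 2-fold lower (1.42 against 8.58 CPM). Single cells weighed on both means. A d20 cell held Fgfr1 at 209 CPM, and the Fgfr1 ratio from summed UMIs was 1.53 (1.11 to 2.13). A later-numbered d12c cell with the larger fibroblast sum held Fgfr2 at 170 CPM. The 28 later-numbered cells with the larger XEN sum had an Fgfr2 mean of 3.11 CPM, under the minimum of 5 CPM. At d4, cells numbered up to 48 and above had Pdgfra means of 193 and 70.2 CPM, Kitl means of 75.5 and 14.1 CPM and Pdgfa means of 14.8 and 57.6 CPM. Whether number ranges are batches is not given by the labels, and their part in these differences was not tested.

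Kdr, the VEGF receptor that follows Kit on chromosome 5 (chr5:76328852-76374483, minus strand, 276 kb further), differed from both neighbours. Its mean was 2.60 CPM in MEFs, 9.96 CPM by d8 and 36.2 CPM by d12, then 11.6 CPM in d12c and 0.153 CPM in d20 cells, where 3 UMIs were counted in 38 cells. From d12 to d20 Pdgfra was lower but still in 37 of 38 cells, Kit was higher and Kdr was found in 2 of 38 cells. The remaining genes of the set lie on other chromosomes in the same models, except Pdgfa (chr5:139451968-139473324, minus strand, overlapped on the other strand by 2 models) and Fgfr3 (chr5:34064373-34079716, plus strand).

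Other genes of these pathways were given by lists. Of 30 other ligands and receptors, 8 were measured at d20 against d12, with 3 higher and 4 lower, beside 30.8% and 22.9% of all measured genes. Fgf3, an FGF ligand, stood at 28.7 CPM at d20 and 0.517 CPM at d12, and Fgf15 at 6.32 and 0. Fgf7, a mesenchymal ligand of an Fgfr2 isoform, was at 103 CPM at d12 and had 0 UMIs at d20; Csf1, the ligand of a receptor related to Kit, was at 241 and 2.29 CPM. Csf1r had 0 UMIs and Fgf18 had 0 UMIs at d20, beside 6.36 and 7.04 CPM at d12. Fgfrl1, an FGF receptor without a kinase domain, was at 19.9 CPM at d20 and 8.34 at d12. Fgf20 reached 48.3 CPM in the 20 d8c cells and at most 1.01 CPM in any other group.

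Of 15 co-receptors and carriers, 10 were measured in the same comparison, with 3 higher and 6 lower. The heparan sulfate proteoglycans Sdc1 (136 against 655 CPM), Sdc2 (18.6 against 199), Sdc4 (51.5 against 337), Gpc1 (7.86 against 131) and Gpc4 (4.20 against 59.2) were lower at d20, as was Flrt2 (3.73 against 19.2), while Gpc3 (459 against 214 CPM), Flrt3 (195 against 37.4), a binding partner of FGF receptors, and Fgfbp3 (13.9 against 0.427) were higher. Of 18 adaptors and enzymes next to the receptors, 15 were measured, with 3 higher and 6 lower. Frs3, an FGF receptor adaptor, was at 18.5 CPM at d20 and 1.62 at d12, and its relative Frs2 at 3.11 and 15.0 CPM; Sos1 (12.4 against 2.39) and Src (23.4 against 8.55) were higher as well. Cblb, a ubiquitin ligase that removes activated receptors, was at 0.483 and 50.4 CPM. The median log2 difference was -1.71, -2.18 and -0.38 over the measured genes of the 3 lists, beside 0.32 over all measured genes.

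The same lists were counted in the comparisons with d0. At d1 against d0, 2 of 7 measured ligands and receptors were higher and 3 lower, 2 of 10 co-receptors were higher and 4 lower, and 1 of 14 adaptors was higher and 0 lower, beside 9.75% and 11.7% of all measured genes. At d1 Gpc1 was at 146 CPM against 16.6 at d0, Gpc3 at 59.9 against 283, Csf1 at 40.1 against 157 and the PI3 kinase subunit Pik3r1 at 45.4 against 13.5. At d8 against d0, 3 of 8 ligands and receptors were higher and 3 lower, 2 of 10 co-receptors were higher and 3 lower, and 4 of 14 adaptors were higher and 0 lower, among them Pik3r1 at 89.8 CPM, beside 18.6% and 14.9% of all measured genes. At d12 against d0 the counts were 2 higher and 2 lower of 8, 3 and 1 of 10, and 2 and 1 of 14, beside 19.3% and 19.3% of all measured genes, with Sdc1 at 655 CPM against 80.6 and Cblb at 50.4 against 4.29. At d20 against d0 they were 3 and 4 of 8, 2 and 5 of 11, and 2 and 3 of 13, beside 23.2% and 19.1%.

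**Figure D5:**
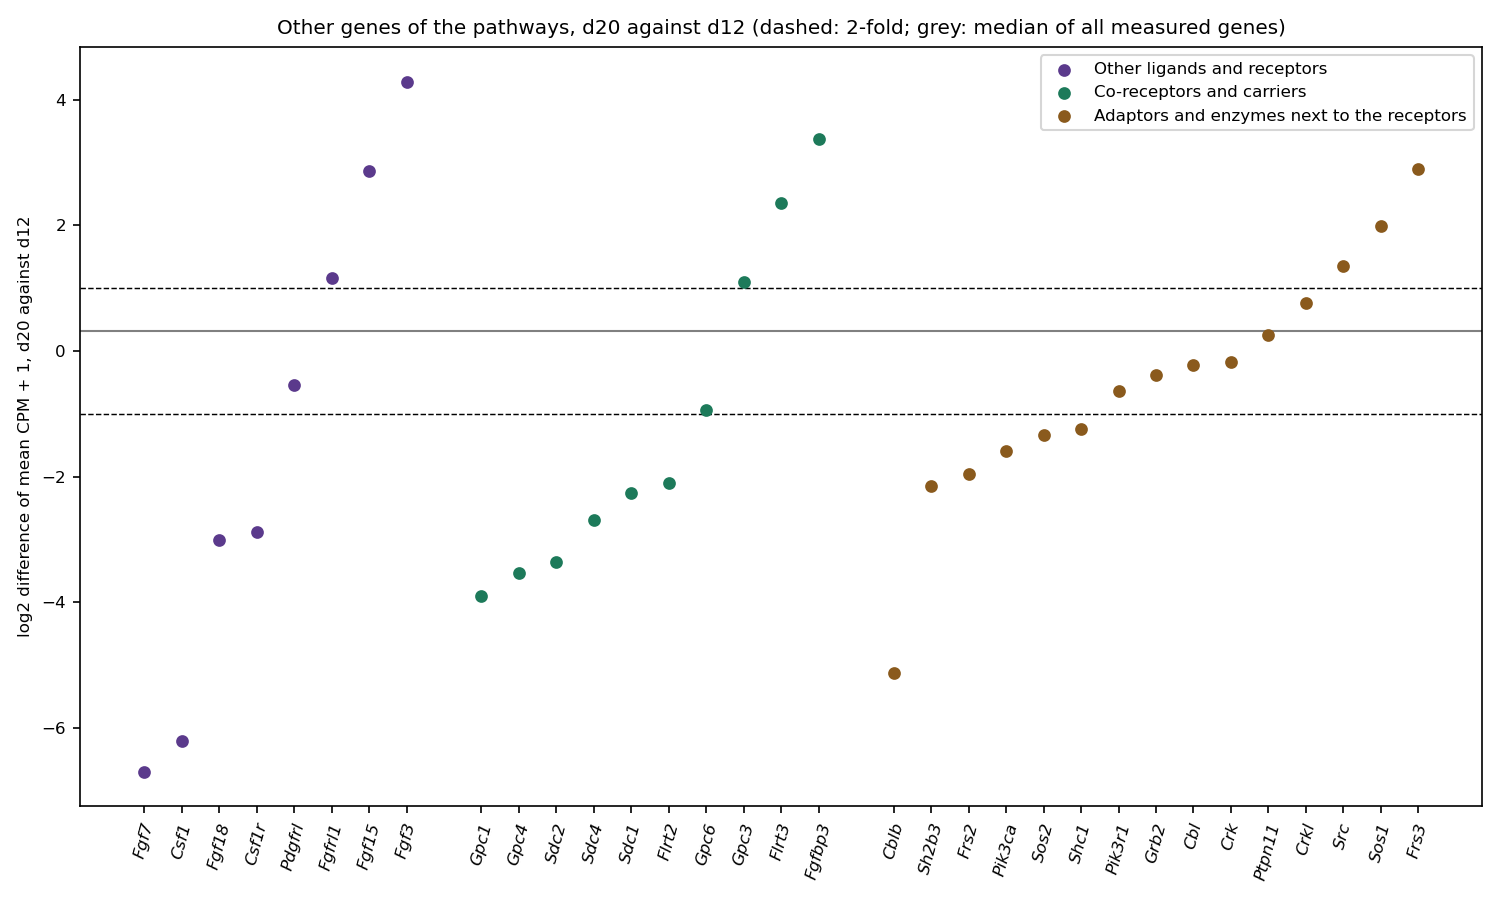
Log2 difference of mean CPM plus 1 between d20 and d12 for the measured genes of the 3 pathway lists, ordered within each list, with dashed lines at 2-fold and a grey line at the median of all measured genes. Fgf3, Fgfbp3 and Frs3 stand highest in their lists, and Fgf7, Gpc1 and Cblb lowest; the value of Fgf7 depends on the added 1 CPM, since it had 0 UMIs at d20.

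Genes whose group means ran most like those of a member were found by Pearson's r of log2 levels over the 12 groups among 10381 genes, as a description over groups without replicates. Csnk1d was most like Pdgfra (0.91), followed by Pnpla8 (0.89) and Sgk1 (0.88). Prnp was most like Pdgfrb (0.93), Cdo1 most like Pdgfc (0.98), Rhog most like Fgfr1 (0.93), Clip3 most like Fgfr2 (0.97), with Cdh11 at 0.95, and Zfyve27 most like Kit (0.95), with Neu1 at 0.92. For Pdgfa and Kitl the closest genes were Txnrd2 (0.84) and Pde2a (0.82).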

How the data were processed

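Per the labels and the study's methods, the authors picked single cells by hand, assigned paired-end reads to cells by barcode, aligned them after trimming to the transcriptome of mm9, and collapsed duplicates by unique molecular identifiers (UMIs). The deposited table holds the resulting raw UMI counts for 23197 genes, 92 ERCC spike-ins and 808 cells; a few of the highest counts are stored rounded. The aligner and its version are not given in the sources used here, nor is any removal of doublets, and no doublet caller was run on these hand-picked cells. The 12 groups were read from the start of each cell name. The 10 samples are batches that cell names do not show, so the table was treated as 1 sample, no statistical test was run, and no fold was given an error from cells.

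Cells with at least 4000 genes were kept (670, with 17633 to 6004864 UMIs, median 510306). CPM was computed per cell without ERCC rows, which took 5.43% of UMIs, and averaged over cells. A gene was measured in a comparison with a mean of at least 5 CPM in either group, and past 2-fold where log2((mean + 1)/(mean + 1)) exceeded 1 in size. Intervals of shares are exact (Clopper-Pearson, 95%), those of UMI ratios are exact counting intervals, and a count of 0 was given the limit of 3 counts. Cells were thinned without replacement to 50000 UMIs. 4 entries with repeated names were dropped, and 26 gene names had been turned into dates. Named genes were the 10 members, the pathway genes past 2-fold or at 50 CPM or more, and the 3 genes closest to each member (mean of at least 10 CPM in a group). Members, marker and pathway lists were chosen with earlier results of these data known. Alternatives covered the gene minimum, averaging, pseudocount, scaling (edgeR 4.0.16, DESeq2 1.42.0 factors only, with no test), thinning, number ranges and spike-ins. Promoter windows were RefSeq's on GRCm38.p6. The scripts (Python 3.11.15, numpy 2.4.6, pandas 2.3.3, scipy 1.17.1, matplotlib 3.10.9, R 4.3.3) were tested on simulated data.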

Additional observations from a re-analysis of the deposited data

How the results depend on the processing

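Of the 25 calls past 2-fold, all kept their direction under the alternatives named here except where stated, and 19 to 25 stayed past 2-fold under each alternative other than the median over cells and the spike-in scaling (19 of 23 in cells numbered above 48, since no d1 cell has such a number). All 25 stayed with a minimum of 6000 genes, without the highest cell of each gene and group, and with a pseudocount of 0.1. At d12 against d0 the count of 5 became 3 with a pseudocount of 10, where Pdgfa (-0.91) and Kit (0.91) missed, and 2 in cells numbered above 48, where Pdgfa (-0.72), Fgfr1 (0.80) and Kitl (0.78) missed. With the median over cells, chosen after seeing the data, 4 genes in place of 2 were past 2-fold at d1 against d0 and 5 in place of 8 at d20 against d12, 18 of 25 calls stayed, and 3 calls had a difference of 0 because both medians were 0. Scaling per spike-in UMI, also chosen after seeing the data, kept 17 of 25 calls and turned Fgfr1 (-0.84) and Kitl (-0.80) at d12 against d0. Over all genes, the numbers past 2-fold in the order of the comparisons were 2044, 3323, 3840, 4293 and 5607. With a pseudocount of 10 they were 779, 1500, 1948, 2186 and 3301, and per spike-in UMI the last 4 were 5580, 8827, 9376 and 3583. With no filter on low values there were 3161 at d1, and with back-transformed log means 2692 and 3648 in both comparisons of d20; the median over cells gave 3621 at d20 against d12. No paired analysis was possible because cell names carry no batch. Fgfr3, with 0 to 49 UMIs in a group, could not be compared at this depth.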
